A study of Mus musculus with 10 samples.

Results

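Saa3, Lcn2, Hp, Cp, Ptx3, Serpina3n, Serpina3g and Serpina3f are 8 mouse genes for acute-phase proteins and serine protease inhibitors, taken by their symbols from the 24411 genes counted in 10 RNA-seq libraries of microglia, the resident macrophages of the brain. All cells had received EPZ-6438 at 10 uM for 4 h, a compound that blocks EZH2, the enzyme that methylates lysine 27 of histone H3 (H3K27). Lipopolysaccharide (LPS), a bacterial cell wall component sensed by Toll-like receptor 4, was added at 10 ng/ml to some of them. The groups were LPS-treated primary microglia (n = 3), primary microglia without LPS (n = 3), LPS-treated BV2 cells (n = 2) and BV2 cells without LPS (n = 2). Primary microglia had been shaken off mixed glia grown from the pooled brains of 12 ICR pups 3 days old (most of the harvested cells carried CD11b, per the labels), and BV2 cells are a mouse microglial line immortalised in culture. Cells without EPZ-6438 were not analysed here, and all results hold for cells under that inhibitor. The labels do not say that replicates were separate cultures, so the spread behind each p-value may be technical.

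Acute-phase proteins are secreted in large amounts when tissue is infected or injured, chiefly by the liver, where interleukin-6 and interleukin-1 switch on their genes through STAT3, C/EBP and NF-kB factors. Brain glia make several of them locally. They bind iron carriers, haemoglobin, lipids or microbial surfaces. Serpins trap proteases by a change of shape that destroys both partners, and the mouse has a cluster of Serpina3 genes on chromosome 12 where humans have a single SERPINA3.

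Levels are given as CPM, read counts scaled to a common library total by TMM normalization, and levels of different genes are compared only as CPM per kb of exon. Responses are log2 fold changes ± SE from edgeR's quasi-likelihood test, called at a Benjamini-Hochberg adjusted p under 0.05 over all genes tested. Gene counts per library lay between 2750988 and 3684012, and a gene with no read in 1 library could still be at up to 0.845 to 1.23 CPM, for counting error only. Among the LPS-treated primary libraries, replicate 1 stood apart. The ribosomal RNA precursor Rn45s took 43.7% of its gene counts, against 15.7% and 16.0% in replicates 2 and 3, and 40.9% to 51.7% in the primary libraries without LPS. Responses of the 8 genes in primary microglia are therefore also given without that library. All 18 microglia and macrophage markers had reads in both primary groups, and 17 of 18 in both BV2 groups, where Sall1 was at 0.

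The promoters of 5 of the genes are printed first, because these genes differ in where they were read: Saa3 and Lcn2 in both kinds of cell, and Serpina3g, Serpina3n and Ptx3 almost solely in primary microglia. RefSeq promoter windows (GRCm38.p6, 250 bases before to 50 after a start) matched 7 of the 8 genes by symbol. Shown are the 250 bases before the start and the first 20 after it, in the direction of transcription. Capitals mark matches, on either strand, to an NF-kB motif, a C/EBP motif (TTGCNNAA), a STAT motif (TTCNNNGAA), an interferon response motif (GAAANNGAA) and a TATA box (TATAAA).
Saa3, chr7:46715657-46715926, minus strand: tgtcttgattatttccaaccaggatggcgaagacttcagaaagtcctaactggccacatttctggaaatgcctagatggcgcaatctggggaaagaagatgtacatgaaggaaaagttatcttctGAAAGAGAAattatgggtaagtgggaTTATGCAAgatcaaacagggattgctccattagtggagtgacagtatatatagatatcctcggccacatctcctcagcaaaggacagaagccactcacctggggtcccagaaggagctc
Lcn2, chr2:32387720-32387989, minus strand: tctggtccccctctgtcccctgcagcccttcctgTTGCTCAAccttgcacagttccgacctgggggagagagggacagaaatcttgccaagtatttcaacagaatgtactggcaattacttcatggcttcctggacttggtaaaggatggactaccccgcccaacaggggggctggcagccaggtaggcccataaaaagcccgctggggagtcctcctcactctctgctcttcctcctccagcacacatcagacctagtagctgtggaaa
Serpina3g, chr12:104235897-104236166, plus strand: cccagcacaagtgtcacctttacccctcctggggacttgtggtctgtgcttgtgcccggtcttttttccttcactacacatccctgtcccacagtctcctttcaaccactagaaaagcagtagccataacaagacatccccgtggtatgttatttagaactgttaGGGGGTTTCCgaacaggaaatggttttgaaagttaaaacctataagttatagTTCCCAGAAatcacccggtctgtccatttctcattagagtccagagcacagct
Serpina3n, chr12:104406458-104406727, plus strand: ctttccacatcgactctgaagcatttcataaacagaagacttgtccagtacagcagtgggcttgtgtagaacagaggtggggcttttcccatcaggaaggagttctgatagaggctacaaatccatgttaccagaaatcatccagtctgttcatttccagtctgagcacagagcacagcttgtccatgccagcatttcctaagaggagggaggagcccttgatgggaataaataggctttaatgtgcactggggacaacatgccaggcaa
Ptx3, chr3:66219637-66219906, plus strand: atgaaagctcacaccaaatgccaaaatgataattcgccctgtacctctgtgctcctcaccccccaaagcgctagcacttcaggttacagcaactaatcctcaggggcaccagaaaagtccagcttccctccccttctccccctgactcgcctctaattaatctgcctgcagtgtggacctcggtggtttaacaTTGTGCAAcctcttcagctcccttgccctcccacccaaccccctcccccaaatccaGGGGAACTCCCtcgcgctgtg

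In the Saa3 window the capitals are an interferon response motif at -125 to -117 and a C/EBP motif at -99 to -92, counted from the start. Lcn2 held a C/EBP motif at -216 to -209. Serpina3g held an NF-kB motif at -85 to -76 and a STAT motif at -33 to -25. Ptx3 held a C/EBP motif at -57 to -50 and overlapping NF-kB matches at the start itself, from -1 to 9 and from 1 to 10. None of the 5 motifs was in the Serpina3n window. Of the 7 genes matched, 5 held the C/EBP motif, against 10.8% of all 32851 promoter windows of this length. The NF-kB motif was in 2 of 7 genes and 4.51% of all windows, the STAT motif in 2 of 7 and 8.30%, the interferon response motif in 2 of 7 and 8.56%, and the TATA box in 2 of 7 and 13.6%. Some genes have more than 1 window, and a match describes letters only.

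In primary microglia, 7 of the 8 genes were called higher with LPS, the estimate for the eighth (Hp) was also above 0, and all 8 passed the filter on low counts, Serpina3f and Serpina3g through the LPS-treated group alone. Of all 10664 genes tested, 21.4% were called higher and 17.8% lower. The median response over the 8 genes was 3.29 on the log2 scale, also with those 2 at their lower bounds, and that over all genes tested was -0.03. All 7 were also called without replicate 1 of the LPS-treated group, and with a term that sets it and replicates 1 and 2 of the group without LPS apart from the other 3 libraries. In BV2 cells, 3 of the 8 had enough reads to test (Saa3, Lcn2 and Hp), and all 3 were higher with LPS. Of 9321 genes tested there, 3.69% were called higher and 1.51% lower.

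**Figure D1:**
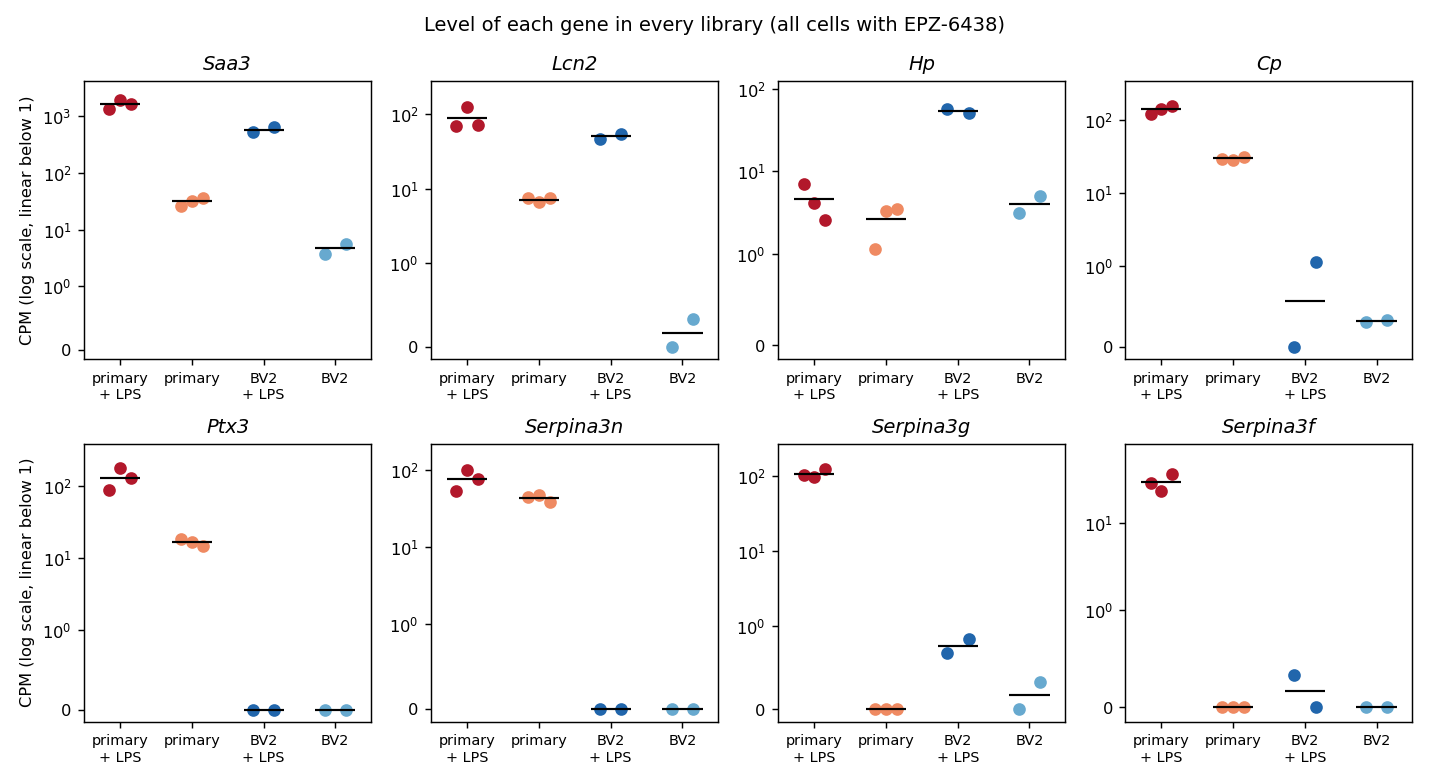
Level of each gene in every library, in CPM on a log axis that is linear below 1; points are libraries and bars are group means. With LPS, Saa3 reached 1340 to 1878 CPM in primary microglia and 520 and 636 CPM in BV2 cells, while Ptx3 and Serpina3n had no read in the 4 BV2 libraries.

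Saa3 (GENCODE M21 on GRCm38, chr7:46711998-46715700, minus strand) encodes serum amyloid A3, an acute-phase apolipoprotein that macrophages make outside the liver. Its level was 1340, 1878 and 1607 CPM in LPS-treated primary microglia, against 26.2, 32.3 and 35.5 CPM in primary microglia without LPS. In BV2 cells it was 520 and 636 CPM with LPS, against 3.74 and 5.62 CPM without LPS. The groups with and without LPS lay far apart in both kinds of cell. The response was 5.67 ± 0.16 in primary microglia (adjusted p = 2.60e-15 by edgeR) and 5.79 without replicate 1. In BV2 cells it was 6.98 ± 0.22 (adjusted p = 1.05e-09 by edgeR).

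Lcn2 (chr2:32384633-32388252, minus strand) encodes lipocalin 2, which binds bacterial siderophores and so withholds iron. LPS-treated primary microglia had 68.6, 124 and 70.0 CPM, against 7.49, 6.54 and 7.39 CPM in primary microglia without LPS. LPS-treated BV2 cells had 46.7 and 53.0 CPM, against 0 and 0.330 CPM in BV2 cells without LPS. Neither pair of groups overlapped, and 1 of the 3 LPS-treated primary libraries was well above the other two. The response in primary microglia was 3.60 ± 0.29 (adjusted p = 2.61e-06 by edgeR) and 3.74 without replicate 1. In BV2 cells 327 counts with LPS stood against 1 count without, a ratio of 312 with a 95% counting interval of 55.6 to 12367, and the edgeR adjusted p was 3.39e-07. Lcn2 entered the BV2 test through the LPS-treated group alone.

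Hp (chr8:109575128-109579172, minus strand) encodes haptoglobin, the plasma protein that captures free haemoglobin. It was low in primary microglia, at 7.05, 4.15 and 2.55 CPM with LPS, against 1.12, 3.27 and 3.52 CPM without LPS. In BV2 cells it had 56.4 and 51.3 CPM with LPS, against 3.12 and 4.96 CPM without LPS. The primary groups overlapped and the BV2 groups did not. The BV2 response was 3.76 ± 0.26 (adjusted p = 1.59e-06 by edgeR). Hp had 10 and 15 counts in BV2 cells without LPS and entered the BV2 test through the LPS-treated group alone. In primary microglia the difference was 0.72 ± 0.47 and was not called (adjusted p = 0.245 by edgeR). It was 0.32 without replicate 1, where the adjusted p was 0.628, and these values rest on 40 counts over the LPS-treated group and 21 over the group without LPS.

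Cp (chr3:19957054-20009145, plus strand) encodes ceruloplasmin, a copper-carrying ferroxidase that lets iron leave cells and that astrocytes express in a membrane-anchored form. LPS-treated primary microglia had 121, 142 and 156 CPM, against 29.6, 28.2 and 31.7 CPM in primary microglia without LPS. The primary groups were clearly apart. The response was 2.22 ± 0.14 (adjusted p = 1.35e-10 by edgeR) and 2.31 without replicate 1. In BV2 cells Cp had 4 counts over the LPS-treated group and 2 over the group without LPS, a ratio of 1.91 with a 95% counting interval of 0.274 to 21.1. The gene Hps3 overlaps Cp on the other strand, where the BV2 libraries had 4 and 7 counts with LPS and 6 and 12 counts without.

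Ptx3 (chr3:66219910-66225805, plus strand) encodes pentraxin 3, a long pentraxin that binds microbes and complement C1q. It had 86.6, 175 and 129 CPM in LPS-treated primary microglia, against 18.4, 16.4 and 14.4 CPM in primary microglia without LPS. All 3 LPS-treated libraries were above all 3 without LPS, and replicate 1 was the lowest of the 3. The response was 2.98 ± 0.27 (adjusted p = 2.90e-05 by edgeR) and 3.20 without replicate 1. No read of Ptx3 was counted in any BV2 library, which allows up to 0.460 CPM over the LPS-treated BV2 group and up to 0.481 CPM over the BV2 group without LPS. Ptx3 lies within Veph1, which is on the other strand.

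**Figure D2:**
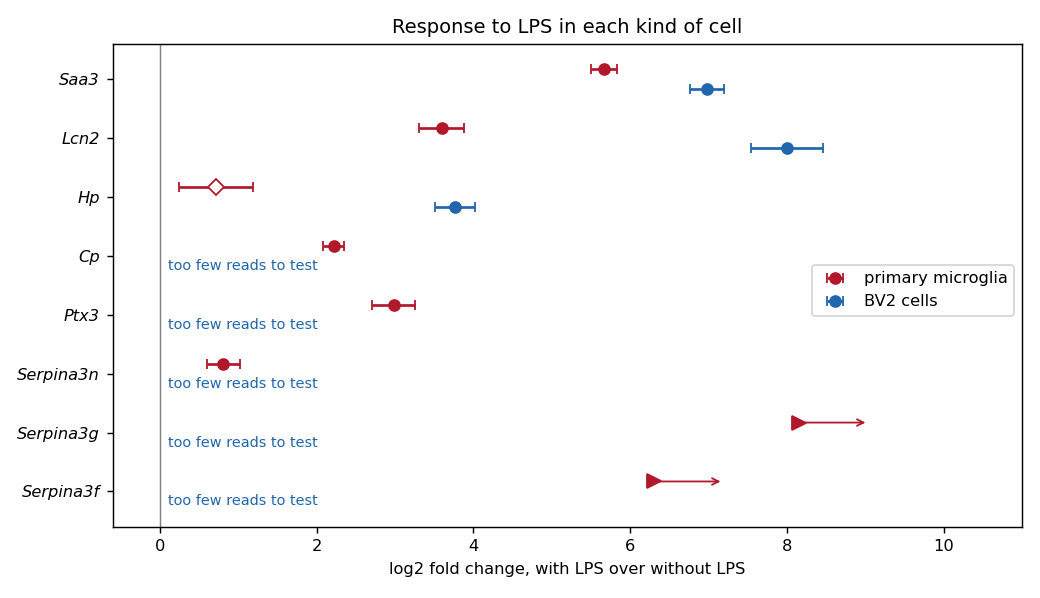
Response to LPS as log2 fold change ± SE in primary microglia (red) and BV2 cells (blue). Filled circles were called, the open diamond (Hp in primary microglia) was not, and triangles with arrows are lower bounds for genes with no read without LPS; 5 genes had too few reads to test in BV2 cells.

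Of the 3 Serpina3 genes among the 8, Serpina3f and Serpina3g were read in primary microglia with LPS alone, and Serpina3n in both primary groups. Serpina3g (chr12:104236245-104241939, plus strand) encodes an intracellular serpin that inhibits lysosomal cysteine cathepsins. It had 101, 95.7 and 120 CPM in LPS-treated primary microglia and no read in the 3 primary libraries without LPS. With 983 counts against 0 the level was at least 283-fold higher, measured against 3 counts over the group (adjusted p = 3.49e-13 by edgeR), and at least 289-fold without replicate 1. Serpina3f (chr12:104214544-104221129, plus strand) is a close relative on the same strand. It had 28.2, 23.0 and 36.6 CPM in LPS-treated primary microglia and again no read without LPS, so it was at least 78.6-fold higher (adjusted p = 1.55e-09 by edgeR), and at least 80.0-fold without replicate 1. A count of 0 over the primary group without LPS allows up to 0.377 CPM.

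Serpina3n (chr12:104406729-104414329, plus strand) encodes a secreted inhibitor of granzyme B and cathepsin G that astrocytes make after injury. Unlike Serpina3f and Serpina3g it was read in every primary library, at 52.9, 101 and 76.3 CPM with LPS, against 45.3, 47.4 and 38.0 CPM without LPS. The ranges did not overlap, but the lowest LPS-treated library was close to the highest without LPS. The response was 0.81 ± 0.21 (adjusted p = 0.00959 by edgeR), the smallest of the 7 called. It was 1.01 without replicate 1 and between 0.58 and 1.01 under all alternatives tried, with adjusted p up to 0.0440. In BV2 cells Serpina3n had no read in 4 libraries, Serpina3f had 1 read in all, and Serpina3g had 5 counts with LPS and 1 without, a ratio of 4.77 with a 95% counting interval of 0.534 to 226.

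The files counted 11 Serpina3 genes, and the other 8 were read on the same terms. Serpina3h, annotated as a transcribed pseudogene, had 32.1, 43.1 and 47.3 CPM in LPS-treated primary microglia, against 3.75, 5.31 and 3.52 CPM without LPS, a response of 3.28 ± 0.25 (adjusted p = 1.91e-09 by edgeR). Serpina3i had 5.88, 7.34 and 6.80 CPM with LPS, against 0.375, 0.818 and 1.06 CPM without LPS, a response of 3.07 ± 0.46 (adjusted p = 2.51e-05 by edgeR). Serpina3h and Serpina3i had 33 and 6 counts over the group without LPS, and both entered the test through the LPS-treated group alone. The remaining 6 (Serpina3a, Serpina3b, Serpina3c, Serpina3j, Serpina3k and Serpina3m) had 3 counts or fewer over the 6 primary libraries. Serpina3f, Serpina3g, Serpina3h and Serpina3i, which had few or no reads without LPS, lie next to each other along the chromosome, and Serpina3n is the last of the 11. Over the 4 BV2 libraries no Serpina3 gene had more than 6 counts. Of the 101-base stretches of Serpina3f and Serpina3g transcripts, 3.31% and 3.36% also occur in another Serpina3 gene, so a small part of their counts could have been lost or shared; for Serpina3n it was 0.153%.

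**Figure D3:**
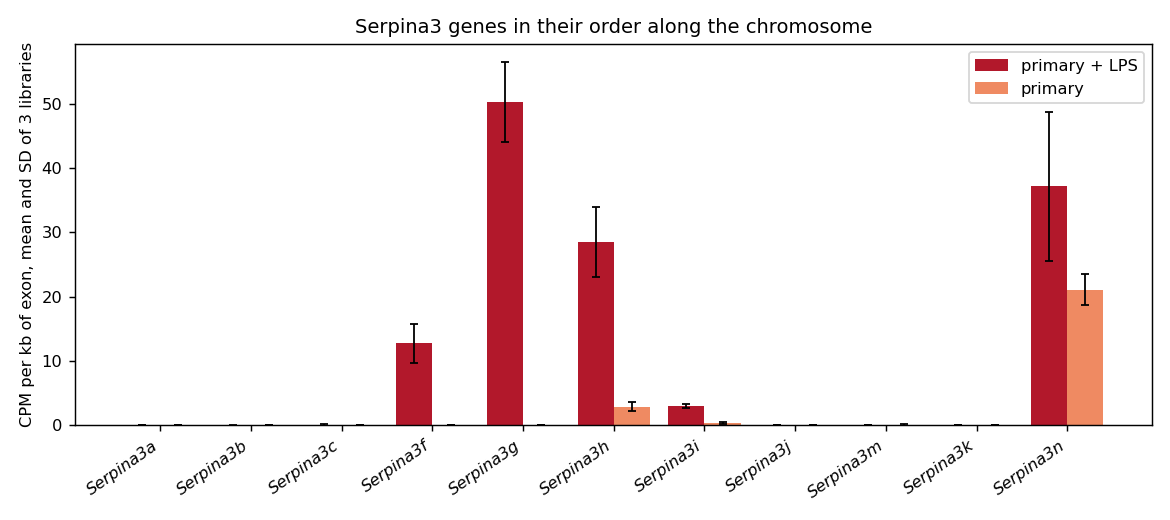
Level of the 11 Serpina3 genes in primary microglia with LPS (left bar of each pair) and without LPS, as mean CPM per kb of exon with SD over 3 libraries, in their order along the chromosome. Serpina3g, Serpina3n, Serpina3h and Serpina3f have the highest bars with LPS, at 50.2, 37.1, 28.5 and 12.8 CPM per kb. Without LPS Serpina3n (21.1 CPM per kb) and Serpina3h (2.92 CPM per kb) are highest.

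Per kb of exon, the order of the genes changed with LPS. In LPS-treated primary microglia Saa3 had 617 ± 103 CPM per kb (SD, n = 3), which was 75.6% of the sum over the 8 genes. Serpina3g (50.2), Ptx3 (48.6), Serpina3n (37.1) and Lcn2 (33.4 CPM per kb) followed, each overlapping its neighbour in range. Cp (14.6) and Serpina3f (12.8 CPM per kb) overlapped each other below them, and Hp was last at 2.85 CPM per kb. In primary microglia without LPS, Serpina3n led with 21.1 ± 2.40 CPM per kb (SD, n = 3), 45.2% of the sum. Saa3 (12.0), Ptx3 (6.11), Cp (3.12), Lcn2 (2.72) and Hp (1.64 CPM per kb) came after it without overlap between neighbours. In LPS-treated BV2 cells the order was Saa3 at 222, Hp at 33.5 and Lcn2 at 19.0 CPM per kb, again without overlap, with Saa3 at 80.7% of the sum. In BV2 cells without LPS, Hp (2.51) and Saa3 (1.80 CPM per kb) overlapped and no other gene passed 0.1 CPM per kb.

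**Figure D4:**
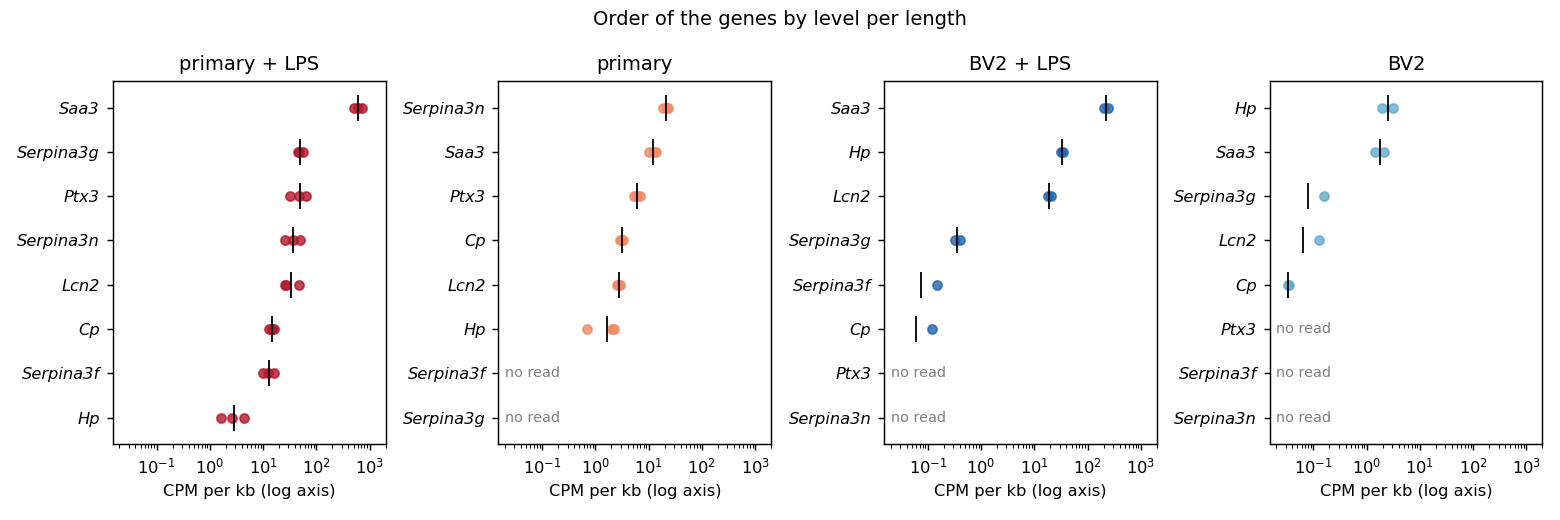
The 8 genes in order of mean level per kb of exon in each group, on a log axis; points are libraries with a read and black ticks are group means that include libraries at 0. Saa3 leads both LPS-treated groups, Serpina3n leads primary microglia without LPS, and Hp and Saa3 overlap in BV2 cells without LPS.

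The responses of primary microglia and BV2 cells were compared in a fit of all 10 libraries, where 4 of the 8 genes were called, against 12.2% of all 11626 genes in either direction. For Saa3 the response in primary microglia minus that in BV2 cells was -1.27 ± 0.32 on the log2 scale (adjusted p = 0.00673 by edgeR). For Hp it was -3.003 ± 0.591 (adjusted p = 5.87e-04 by edgeR), and for Lcn2 -4.34 ± 0.96 (adjusted p = 0.00435 by edgeR). The Lcn2 value rests on a single count in BV2 cells without LPS. Serpina3g was also called (adjusted p = 0.0166 by edgeR), but it had no read in primary microglia without LPS and entered the test through LPS-treated primary microglia alone, so the size of its difference is not given. Its level with LPS was at least 283-fold that without LPS in primary microglia, and the BV2 ratio of 4.77 rests on a single count without LPS. All 4 were also called without replicate 1 of LPS-treated primary microglia. Leaving out replicate 1 of BV2 cells without LPS gave -0.99 for Saa3 (adjusted p = 0.144) and -3.45 for Lcn2 (adjusted p = 0.0601), and neither was then called. Without replicate 2 of that group Lcn2 and Serpina3g were at 0 there, where the fitted Lcn2 difference was -6.61 (adjusted p = 0.0151) and Serpina3g was not called. The Cp difference was 1.38 ± 1.33 and was not called (adjusted p = 0.655 by edgeR). All 4 Cp counts of LPS-treated BV2 cells came from replicate 2, and the difference was 0.55 without replicate 1 and 5.33 without replicate 2, not called in either. For Serpina3f, Serpina3n and Ptx3 edgeR gave no usable difference, because Serpina3n and Ptx3 had no read in BV2 cells and Serpina3f had none in either group without LPS.

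The level itself differed between the kinds of cell for most of the 8, as it did for most genes tested. With LPS all 8 were called, 7 higher and Hp lower in primary microglia than in BV2 cells. Of all 11626 genes tested, 73.8% were called in either direction, 5014 higher and 3564 lower. All 8 were also called without replicate 1 of LPS-treated primary microglia. Serpina3f, Serpina3g, Serpina3n, Cp and Ptx3 had 0 to 5 counts over LPS-treated BV2 cells and entered the test through the primary libraries alone. Saa3 was higher by 1.48 ± 0.15 and Lcn2 by 0.81 ± 0.22 on the log2 scale (adjusted p = 2.18e-09 and 0.00304 by edgeR), and Hp was lower, with a log2 difference of -3.60 ± 0.29 (adjusted p = 1.75e-11 by edgeR). Serpina3g differed by 7.04 ± 0.32 and Cp by 7.75 ± 0.33, and Cp by 6.90 without replicate 1 of LPS-treated BV2 cells and by a fitted 11.68 without replicate 2, where the group was at 0. Ptx3 was at least 289-fold and Serpina3n at least 170-fold higher. Serpina3f had 273 counts in primary microglia against 1 in BV2 cells, a ratio of 193 with a 95% counting interval of 34.4 to 7667. The comparison without LPS sets other libraries against each other, but both were taken from the 1 fit of all 10 libraries and share its estimate of the spread. Both also share their libraries with the responses above. In the comparison without LPS 5 of the 8 were called, all higher in primary microglia. Of all 11626 genes tested, 74.1% were called in either direction, 4829 higher and 3782 lower. Serpina3n, Ptx3 and Cp, with 0, 0 and 2 counts over BV2 cells without LPS, entered this comparison through the primary libraries alone. Saa3 was higher by 2.74 ± 0.27 (adjusted p = 1.45e-09 by edgeR), Serpina3n at least 90.1-fold and Ptx3 at least 33.9-fold. The ratio was 44.6 for Lcn2 (95% counting interval 7.70 to 1794) and 93.2 for Cp (25.5 to 774). Hp differed by -0.60 ± 0.48 and was not called (adjusted p = 0.258 by edgeR), and Serpina3f and Serpina3g were at or under 3 counts in both groups. The median over all genes tested was 0.29 with LPS and 0.23 without.

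**Figure D5:**
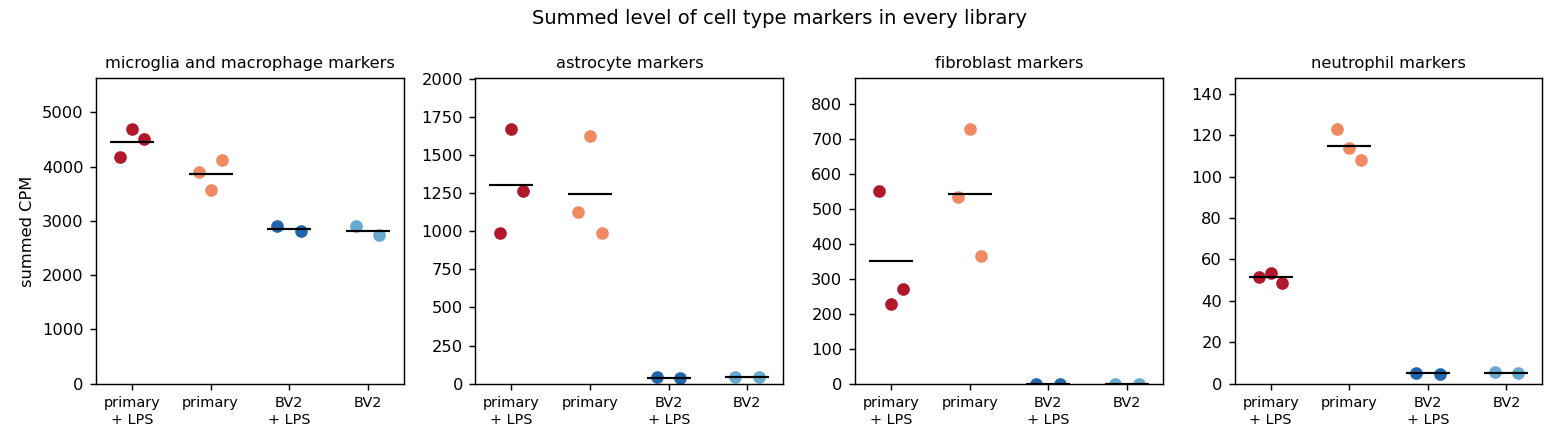
Summed CPM of 4 marker lists in every library, with group means as bars. Astrocyte markers sum to 990 to 1668 CPM in LPS-treated primary microglia and 988 to 1627 CPM in primary microglia without LPS, and to 38.0 to 43.0 CPM in BV2 cells, where Gfap is at 0.

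Marker sums of other glia were higher in primary microglia than in BV2 cells. With LPS 7 of the 8 genes went this way, and without LPS the 5 called did. Of all 11626 genes tested, 5014 were called higher in primary microglia with LPS and 4829 without LPS. The microglia and macrophage sum was higher too, with means of 4459 against 2858 CPM with LPS and 3869 against 2821 CPM without LPS. The neuron sum was also higher, with means of 81.9 and 86.2 CPM against 0. The endothelial and mural sum was lower, at 77.4 against 94.1 CPM with LPS and 78.8 against 115 CPM without LPS. The 14 astrocyte markers summed to 990, 1668 and 1261 CPM in LPS-treated primary microglia and to 1127, 1627 and 988 CPM in primary microglia without LPS, and 13 and all 14 of them had reads. In BV2 cells they summed to 38.0 to 43.0 CPM, 13 of 14 were at 0 with LPS and 12 of 14 without, and Gfap, Aqp4 and Slc1a2 were at 0 in both groups. The 11 fibroblast markers summed to 229 to 552 CPM with LPS and 366 to 727 CPM without LPS in primary microglia, and to 0.330 CPM at most in BV2 cells. Among the LPS-treated primary libraries, replicate 2 was highest and replicate 1 lowest for the astrocyte sum, and likewise for Saa3, Lcn2, Serpina3n and Ptx3, while Cp, Serpina3g and Serpina3f were highest in replicate 3 and Hp in replicate 1. The microglia and oligodendrocyte marker sums had the same order as the astrocyte sum, and the fibroblast sum the reverse order. Among primary libraries without LPS, replicate 2 was highest and replicate 3 lowest for the astrocyte sum, the fibroblast sum and Serpina3n. Replicate 1 was highest for Ptx3 and Lcn2 and replicate 3 for Saa3, Cp and Hp. The oligodendrocyte sum was highest in replicate 2 and lowest in replicate 1. The microglia sum was highest in replicate 3 and lowest in replicate 2. The astrocyte sums with and without LPS overlapped, and 1 of 11 tested astrocyte markers was called higher with LPS (Aqp4, 0.93 ± 0.17) and 3 lower (Gja1, Sox9 and Fgfr3). Of all genes tested in primary microglia, 21.4% were called higher with LPS and 17.8% lower. The part of these cells in the levels of the 8 genes was not tested, and in bulk RNA fewer cells of a type and less RNA per cell cannot be told apart.

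Markers of hepatocytes and neutrophils, which make or store several of these proteins, were read as well. Of 12 hepatocyte markers, 10 were at 0 in LPS-treated primary microglia and 9 in primary microglia without LPS, Alb and Apoa1 among them. Their sum was 31.2 to 45.1 CPM with LPS and 27.1 to 34.5 CPM without LPS, nearly all from Ttr, the transthyretin gene, which choroid plexus also expresses (38.4 CPM with LPS and 29.3 CPM without LPS). Of 12 neutrophil markers, 6 were at 0 in LPS-treated primary microglia and 8 in primary microglia without LPS, Mpo, Ltf and Elane among them, and S100a8 had 5.14 CPM with LPS and 3.10 CPM without LPS. These 12 markers summed to 48.8 to 53.6 CPM with LPS and 108 to 123 CPM without LPS in primary microglia, mostly from Csf3r, which microglia also express and which fell with LPS (-1.41 ± 0.13, adjusted p = 2.74e-08 by edgeR). In BV2 cells the neutrophil sum was 4.79 to 5.61 CPM and the hepatocyte sum at most 1.98 CPM. The part of such cells in the levels of the 8 genes was not tested.

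The cytokines and factors that control the acute phase were read beside the 8 genes. Of 34 listed inducers and regulators, 32 were tested in primary microglia, 22 rose and 2 fell, with a median response of 1.88, where 21.4% of all genes tested rose and 17.8% fell. In BV2 cells 16 of 24 tested rose (13 were called by DESeq2), with a median of 1.51, where 3.69% of all genes tested rose. Il6 reached 685 CPM in LPS-treated primary microglia, against 0.507 CPM without LPS, a response of 10.28 ± 0.26. Il6 averaged 19.0 CPM in LPS-treated BV2 cells and had no read without LPS, at least 40.1-fold higher. Il1b responded by 10.74 ± 0.19 in primary microglia and 7.87 ± 0.20 in BV2 cells, and Il1a by 9.49 ± 0.19 in primary microglia and 7.66 ± 0.28 in BV2 cells. In primary microglia without LPS, Il6 and Il1b had 4 and 21 counts. In BV2 cells without LPS, Il1b and Il1a had 17 and 6 counts and Il6 had 0. These genes entered those tests through the LPS-treated group alone. Cebpd, a C/EBP factor of the acute phase, rose in both, by 2.40 ± 0.24 in primary microglia and 3.11 ± 0.21 in BV2 cells. Il6ra, the interleukin-6 receptor, and Cebpa were the 2 that fell in primary microglia.

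Of 27 other acute-phase proteins, 11 were tested in primary microglia and 5 rose (C3, Cfb, Mt2, Il1rn and Steap4), with a median response of 0.37 over the 11. Of all genes tested in primary microglia, 21.4% rose. Cfb, complement factor B, had 102 CPM with LPS against 0.492 CPM without LPS, a response of 7.53 ± 0.30. Il1rn, the interleukin-1 receptor antagonist, responded by 5.49 ± 0.16 and Steap4, a metal reductase, by 3.81 ± 0.32. Cfb and Steap4 had 4 and 15 counts without LPS, and both entered the test through the LPS-treated group alone. In BV2 cells 2 of 5 tested rose, complement C3 (1.80 ± 0.20) and Il1rn (1.36 ± 0.17), where 3.69% of all genes tested rose. Outside the Serpina3 cluster, 4 of 10 serpins tested rose in primary microglia, against 21.4% of all genes tested. Serpinb2, an inhibitor of urokinase, responded by 1.95 ± 0.24 and Serpinb9, an inhibitor of granzyme B, by 1.80 ± 0.26. Serping1, the C1 inhibitor, responded by 0.86 ± 0.32 (adjusted p = 0.0373 by edgeR). It had 43 counts without LPS and entered the test through the LPS-treated group alone.

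Among 22 proteases listed beside the serpins, 8 were tested in primary microglia and 5 rose, where 21.4% of all genes tested rose. Ctsc, the cathepsin that activates granule serine proteases, had 873 CPM with LPS against 109 CPM without LPS, a response of 2.99 ± 0.14. Plau, the urokinase gene, responded by 1.10 ± 0.15 and Ctsl, cathepsin L, by 0.72 ± 0.10, and Ctss and C1ra also rose. C1ra had 11 counts without LPS and entered the test through the LPS-treated group alone. In BV2 cells 0 of 7 tested were called by edgeR, 1 had an unadjusted p under 0.05, and DESeq2 called 0. Of all genes tested there, edgeR called 3.69% higher and 1.51% lower. Of 26 receptors and partners of these proteins, 21 were tested in primary microglia, 7 rose and 4 fell, where 21.4% of all genes tested rose and 17.8% fell, with a median of 0.00159. Fpr2, a formyl peptide receptor that binds serum amyloid A, had 82.2 CPM with LPS against 0.235 CPM without LPS, a ratio of 332 with a 95% counting interval of 91.6 to 2746. Fpr2 and Fpr1 had 2 and 26 counts without LPS, and both entered the test through the LPS-treated group alone. Fpr1 responded by 5.46 ± 0.21 and Tlr2, which also senses serum amyloid A, by 3.95 ± 0.13. In BV2 cells 2 of 16 tested rose, Tlr2 (2.05 ± 0.12) and Fcgr2b (1.49 ± 0.27), and 2 fell, P2rx7 (-0.76 ± 0.17) and Fcgr1. Over all genes tested in BV2 cells, 3.69% rose and 1.51% fell.

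Genes with the pattern most like that of each of the 8 were found over the 10 libraries, by the root mean square difference of centred log2(CPM + 1), where 0 is identical. For Saa3 they were Socs3 (0.80), Traf1 (0.83) and Ptgs2 (0.91). Ptgs2 was also the nearest to Lcn2, at 0.34, followed by Nfkbiz (0.76) and Socs3 (0.80). Serpina3g lay nearest to Cxcl9 (0.27), Igtp (0.28) and Il27 (0.32), and Serpina3f to Tgtp2 (0.16) and Tgtp1 (0.22). The nearest to Serpina3n were Sulf1 (0.21), Mlc1 (0.25) and Chl1 (0.26), all 3 with no read in BV2 cells. Cp was nearest to Met (0.28), Enpp4 and Osmr (0.36 each), and Ptx3 to Enpp4 (0.32), Met (0.33) and Shisa3 (0.39), and these genes had no read in BV2 cells either. The nearest to Hp were Gdf15 (0.69), Chst7 (0.70) and A430093F15Rik (0.75). These distances describe 10 libraries that share 4 groups.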

How the data were processed

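The authors deposited whole-number read counts per gene symbol for 10 libraries, laid out as STAR writes them, unstranded and for each strand. The kit was directional and ribosomal RNA had been removed, per the labels' protocols. Per the submitters' processing notes, CASAVA 1.8.2, Trimmomatic 0.33 and STAR 2.5.1 were used with the mm10 build, and DESeq2 is named without a version. The annotation used for counting was not given in the sources used here.

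Counts of the reverse-strand column were used, and the other strand held 0.682% to 2.21% of the reads of both. Lines naming no gene held 70.4% to 79.5% of reads (multimapping 7.64% to 11.8%) and were left out. The test over all genes was that of edgeR 4.0.16, in R 4.3.3 (TMM, filterByExpr with minimum count 10 and minimum total 15, robust quasi-likelihood F test, Benjamini-Hochberg). The LPS responses were fitted in the 6 primary and the 4 BV2 libraries separately, and the other 3 comparisons in 1 fit of all 10. All levels are on the TMM scale of that fit. A group at 0 gives a bound against 3 counts over the group, and 1 to 3 counts give a ratio with an exact 95% interval. Intervals and floors cover counting error only, as reads have no molecular identifiers. The fits were tested on simulated data.

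Replicate pairs differed beyond counting noise (lowest chi-square per degree of freedom 1.52), and each library counted once. Coordinates and lengths are from GENCODE M21 on GRCm38, and promoters from RefSeq on GRCm38.p6, of which 270 of 300 bases are printed. The 8 genes and the lists were chosen with earlier results of these data known. All 8 are described. From each list the up to 3 called genes with the largest response and a mean of at least 10 CPM are named, and further list genes that act on 1 of the 8 or make up a count of 5 or fewer. For each of the 8, the 3 genes most like it are named. Some genes that these rules pick are not reported here. Alternatives were RLE size factors, no filter, DESeq2 1.42.0, unstranded counts, Rn45s left out, no robust moderation, a replicate block, 1 fit of all libraries, a term for the split of the primary libraries, and each replicate left out.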

Additional observations from a re-analysis of the deposited data

Results flagged for a closer look

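The response to LPS differed between primary microglia and BV2 cells for 4 of the 8 genes, by the interaction test of the fit of all 10 libraries. Of all 11626 genes tested, 12.2% were called in either direction. The response in primary microglia minus that in BV2 cells was -1.27 for Saa3, -4.34 for Lcn2 and -3.003 for Hp on the log2 scale. For Serpina3g the adjusted p by edgeR was 0.0166, with no size because primary microglia without LPS had no read. BV2 cells without LPS had 1 read of Lcn2 and 1 of Serpina3g, both in replicate 2, and the Serpina3g result rests on that read. The fitted Lcn2 difference was -6.61 without that library and -3.45 without replicate 1 of the same group. For Saa3 the difference was -0.99 without that replicate 1, so both sizes depend on single libraries of BV2 cells without LPS.

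Reads on the strand opposite to 2 of the genes, which the comparisons do not use, were above those in the libraries without LPS, where that count was 0. On the strand opposite to Saa3 the highest count was 89 in LPS-treated primary microglia and 11 in LPS-treated BV2 cells, and opposite to Serpina3g it was 5 in LPS-treated primary microglia. Opposite to Lcn2, Serpina3f and Hp there were at most 3, 3 and 2 counts in any library with LPS and 0 without. As a share of both strands the highest were 1.49% for Saa3 in primary microglia, 0.485% for Saa3 in BV2 cells and 1.64% for Serpina3g, against 0.682% to 2.21% over all genes of a library. Groups had 2 or 3 libraries, so single libraries were not tested for standing apart within a group.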

How the results depend on the processing

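The number of the 8 genes called stayed at 7 for LPS in primary microglia, 3 for LPS in BV2 cells, 8 between the kinds of cell with LPS and 5 without LPS, under every alternative tried. For the difference of the responses it was 4, and 2 to 4 with 1 library left out; it was 2 without replicate 1 and 3 without replicate 2 of BV2 cells without LPS. It was 5 with DESeq2, which added Serpina3f although both groups without LPS were at 0, and 5 with unstranded counts, which added Cp (2.92, adjusted p = 0.0130); unstranded counts include reads of Hps3 on the other strand. Same-numbered libraries were not taken as pairs (correlations of deviations 0.200, -0.108 and 0.231 in primary microglia, 0.223 in BV2 cells). With a replicate block the counts of the 8 were 7 for LPS in primary microglia, 3 for LPS in BV2 cells, 4 for their difference, 8 between cells with LPS and 5 without LPS, and 4479 against 4178 of all genes were called in primary microglia and 596 against 485 in BV2 cells. Among all genes in BV2 cells, DESeq2 called 318 and edgeR 800 without replicate 1 of LPS-treated cells, against 485. DESeq2 called 3 rather than 4 of the serpins outside the cluster and 10 rather than 11 of the receptors in primary microglia, and 3 rather than 4 receptors in BV2 cells. The BV2 response of Lcn2 lay between 7.12 and 10.36, and the difference between cells with LPS for Lcn2 between 0.48 and 0.97 with adjusted p up to 0.04996. Depth limits Hp in primary microglia and the Serpina3 genes, Cp and Ptx3 in BV2 cells, which have few or no counts.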
